A study of Mus musculus with 6 samples.

Results

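The genes described here are 10 genes used to read cell cycle arrest and cellular senescence, taken by symbol from the 33971 genes of a cartilage expression table: the cyclin-dependent kinase (CDK) inhibitors Cdkn1a, Cdkn1b, Cdkn2a, Cdkn2b, Cdkn2c and Cdkn2d, the tumour suppressor Trp53 and its ubiquitin ligase Mdm2, the lysosomal beta-galactosidase gene Glb1 and the lamin gene Lmnb1. RNA sequencing was performed on articular cartilage of wild-type (WT) mice aged 2 months (3 libraries) and 18 months (3 libraries). No treatment was named, and the labels do not say how many animals gave each library, so p-values measure only the spread between these libraries. All 10 genes passed the filter on low counts, as did 20397 genes in all.

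CDK inhibitors hold cells before DNA replication. The Cip/Kip proteins p21 (Cdkn1a), p27 (Cdkn1b) and p57 (Cdkn1c) bind complexes of cyclin and CDK, whereas the Ink4 proteins p16 and p15 (Cdkn2a, Cdkn2b), p18 (Cdkn2c) and p19 (Cdkn2d) bind CDK4 and CDK6 and keep the retinoblastoma protein active. Cdkn2a also encodes Arf, an antagonist of Mdm2, in a second reading frame. Senescent cells are commonly recognised by raised p16 and p21, by beta-galactosidase activity from lysosomes, by loss of lamin B1 and by a secretory phenotype, and such cells have been described in ageing joints.

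Loci with several starts set a limit on what a count per gene can show. Cdkn2a (ENSMUSG00000044303, GRCm38 chr4:89274471-89294653, minus strand) has a first exon for Arf at 89294334-89294653 and a first exon for p16 at 89281986-89282192 in GENCODE M21, and 1 count covers transcripts from both. Cdkn1a (ENSMUSG00000023067, chr17:29090976-29100727, plus strand) also has an upstream start near 29090979 and a downstream start near 29093769. The stretches before both starts of each gene are shown because these starts share a single count, and because they hold, or lack, the letters of the p53 and E2F elements that name the pathways measured below. The sequences are RefSeq promoters of GRCm38.p6, without bases that M21 places in an exon of the gene. Capitals mark a match to the core of a p53 response element, searched as 2 CATG stretches with any 6 bases between them, or to an E2F element (TTTCCCGC, TTTCGCGC, TTTGCCGC or TTTGGCGC).
Cdkn1a upstream start, chr17:29090729-29090975, plus strand: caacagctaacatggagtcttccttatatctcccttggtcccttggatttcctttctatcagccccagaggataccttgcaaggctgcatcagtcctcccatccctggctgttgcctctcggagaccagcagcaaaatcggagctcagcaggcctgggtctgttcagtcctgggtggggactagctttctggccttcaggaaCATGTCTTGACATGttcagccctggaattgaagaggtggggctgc
Cdkn1a downstream start, chr17:29093519-29093768, plus strand: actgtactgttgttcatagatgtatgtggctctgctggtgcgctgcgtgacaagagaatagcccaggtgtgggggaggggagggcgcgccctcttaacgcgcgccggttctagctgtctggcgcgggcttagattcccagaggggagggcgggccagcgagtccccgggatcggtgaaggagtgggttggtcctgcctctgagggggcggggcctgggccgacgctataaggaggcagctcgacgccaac
Cdkn2a Arf start, chr4:89294654-89294869, minus strand: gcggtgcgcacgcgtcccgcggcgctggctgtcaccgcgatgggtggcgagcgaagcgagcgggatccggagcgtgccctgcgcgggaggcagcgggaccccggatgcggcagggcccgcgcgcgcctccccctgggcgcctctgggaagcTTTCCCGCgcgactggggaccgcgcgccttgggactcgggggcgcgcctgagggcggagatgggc
Cdkn2a p16 start, chr4:89282193-89282442, minus strand: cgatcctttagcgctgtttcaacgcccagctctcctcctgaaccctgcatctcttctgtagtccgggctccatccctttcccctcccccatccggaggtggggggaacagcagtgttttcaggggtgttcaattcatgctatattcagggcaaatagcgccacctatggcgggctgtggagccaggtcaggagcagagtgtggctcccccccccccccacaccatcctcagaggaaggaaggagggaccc

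The Cdkn1a match, CATGTCTTGACATG, began 48 bases before the RefSeq start, and the Arf match, TTTCCCGC, began 99 bases before it. The sequences before the downstream Cdkn1a start and before the p16 start held neither. Windows of 300 bases (250 before the start, 50 after it) were taken for 9 of the 10 genes and gave 12 windows. Lmnb1 was left out of this search. On both strands, the p53 letters were in 234 of 32851 windows of the whole table (0.712%) and in 0 of 23 windows of a list of other p53 target genes. The E2F letters were in 744 of the 32851 windows (2.27%) and in 4 of 19 windows of proliferation genes (21.1%). The p53 letters were chosen after the Cdkn1a sequence had been read, and a match is a stretch of letters, not a measured site.

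Comparing aged with young cartilage addresses which of these genes differed between the groups of libraries. The groups also differed in markers of cell types and of sex, as given below, so the part of age itself was not tested. Cdkn2d, Lmnb1 and Cdkn2c were higher at 18 months, by 7.19-fold, 7.14-fold and 3.84-fold, and Cdkn1a was 3.64-fold lower. These 4 of 10 genes (40.0%) were past both limits of the edgeR quasi-likelihood test, an adjusted p under 0.05 and a log2 fold change above 1 or below -1. Of all 20397 genes tested, 36.3% were past both limits (14.9% higher, 21.3% lower), so the share among the 10 genes was near that of the background. By the adjusted p alone, the same 4 genes passed, against 51.3% of all genes. The median log2 fold change was 0.30 for the 10 genes and -0.02 for all genes. FPKM, a level scaled by transcript length and by the library's fragments, did not overlap between the ages for 7 of the 10 genes (6 higher, 1 lower), against 68.4% of all genes tested (35.6% higher, 32.8% lower).

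**Figure D1:**
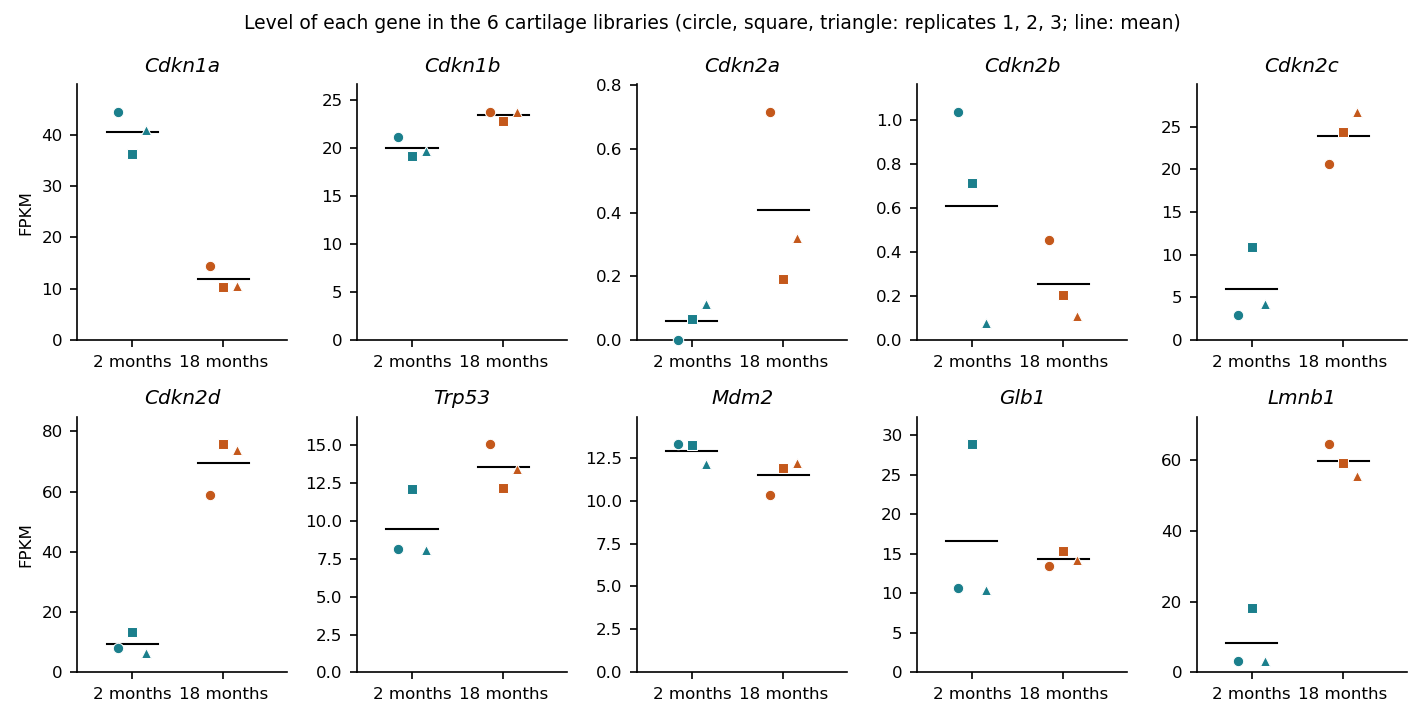
FPKM of each of the 10 genes (vertical axes, linear and starting at 0, each with its own scale) in the 3 libraries of each age, with circles, squares and triangles for replicates 1, 2 and 3 and a line at the mean. Cdkn1a lies between 36.2 and 44.4 at 2 months and between 10.3 and 14.5 at 18 months, and Cdkn2c, Cdkn2d, Glb1 and Lmnb1 share a 2-month square that lies above the other 2-month points.

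The composition of the libraries differed between the ages as well, and it bears on every gene below. The 16 chondrocyte markers, Prg4 (lubricin) the most abundant, summed to between 14956 and 18567 FPKM at 2 months and between 361.8 and 1728 FPKM at 18 months, and all 16 were past both limits as lower. Marrow marker sums, apart from those of B lymphocytes, ran the other way, but fewer of the single markers were called in several lists. Past both limits as higher were 4 of 12 erythroid, 0 of 14 neutrophil, 3 of 12 monocyte and macrophage and 0 of 12 B lymphocyte markers. For megakaryocyte markers it was 9 of 10, and for T and NK lymphocyte markers 6 of 12. Of all genes, 14.9% were higher and 21.3% lower. FPKM was higher without overlap for 12 of 12 erythroid, 13 of 14 neutrophil, 10 of 12 monocyte and macrophage and 2 of 12 B lymphocyte markers. It was so for 10 of 10 megakaryocyte and 11 of 12 T and NK lymphocyte markers, against 35.6% of all genes. Erythroid markers (Hbb-bs the most abundant) summed to 299.9, 7432 and 804.5 FPKM in the 2-month libraries and to between 30032 and 39805 FPKM at 18 months. Neutrophil markers (S100a9 the most abundant) summed to 10.04, 4197 and 109.4 FPKM at 2 months and to between 43183 and 48076 FPKM at 18 months. Monocyte and macrophage markers (Ly6c2) summed to at most 183.9 FPKM at 2 months and at least 613.9 at 18 months, megakaryocyte markers (Ppbp) to at most 47.2 and at least 989.0, and T and NK lymphocyte markers (Nkg7) to at most 15.2 and at least 107.6. B lymphocyte markers (Cd79b) overlapped, at 2.0 to 129.6 FPKM against 86.5 to 101.9 FPKM. Osteoblast and osteocyte markers (Ibsp) summed to 1988 to 5061 FPKM at 2 months and 1259 to 1312 FPKM at 18 months. No list had a marker at 0 in every library of an age. Xist, expressed from the inactive X chromosome, was at 89.5 to 100.9 FPKM at 2 months and 0.00875 to 0.0261 FPKM at 18 months although the study's methods name male mice, so the sex pattern and age cannot be told apart. In bulk samples, fewer cells of a type and less RNA per cell cannot be told apart.

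One young library stood apart. The 2-month replicate 2 had the highest marrow sums of its age, and its 9 osteoclast markers, a list added after the values were seen, summed to 2013 FPKM against 42.6 and 397.4 FPKM in the other 2-month libraries and 721.0 to 883.8 FPKM at 18 months. Values without this library are given beside many, but not all, of the results that it moved. Among the aged libraries, replicate 1 kept the most chondrocyte signal, 1728 FPKM against 366.8 and 361.8.

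**Figure D2:**
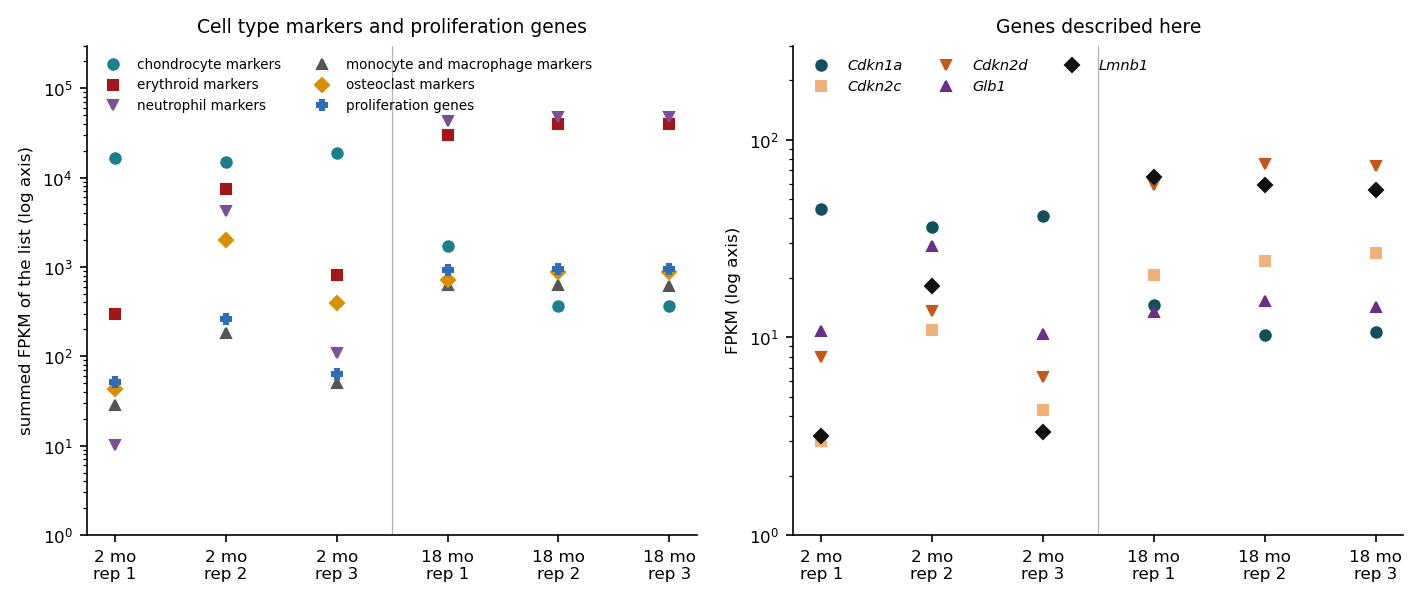
Summed FPKM of marker and proliferation lists (left) and FPKM of 5 of the genes (right), both on log axes, in each of the 6 libraries, with the vertical line between the ages. The 2-month replicate 2 holds 4197 FPKM of neutrophil markers and 18.1 FPKM of Lmnb1, both between the other 2-month libraries and the 18-month libraries.

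Among the Cip/Kip inhibitors, Cdkn1a and Cdkn1b parted. Cdkn1a, a p53 target and the inhibitor most used as a sign of DNA damage arrest, was at 44.4, 36.2 and 41.0 FPKM in the 2-month libraries (40.5 ± 4.14, SD, n = 3) and at 14.5, 10.3 and 10.6 FPKM in the 18-month libraries (11.8 ± 2.35, SD, n = 3). All 3 aged libraries lay below all 3 young libraries. The log2 fold change was -1.87 (SE 0.18, 95% interval -2.32 to -1.41, edgeR adjusted p = 0.0015). It was past both limits under every alternative and with each library left out in turn (-2.01 to -1.77 with a library left out). The fall ran with the chondrocyte markers, and the aged library with the most chondrocyte signal had the highest aged Cdkn1a value, 1.39 times the mean of the other two. Its part in the result was not tested. The locus overlaps 1046 bases of the antisense gene 1700023B13Rik, which had 7 to 174 counts per library against 2304 to 8677 for Cdkn1a.

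Cdkn1b (ENSMUSG00000003031, chr6:134920401-134925513, plus strand) encodes p27, which accumulates in resting cells. It was at 21.1, 19.2 and 19.7 FPKM at 2 months and 23.7, 22.8 and 23.8 FPKM at 18 months, without overlap but within a narrow band. The log2 fold change of 0.15 (95% interval -0.12 to 0.42) did not pass the test (edgeR adjusted p = 0.29). Rescaled to TPM, which moved the median of all genes to -0.33, its value was -0.21. Cdkn1c, the third Cip/Kip gene, was at 24.9, 17.7 and 20.2 FPKM in young and 2.61, 2.37 and 2.06 FPKM in aged cartilage (log2 fold change -3.24, edgeR adjusted p = 7.5e-04).

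The Ink4 genes divided by level. Cdkn2a was near the limit of detection, with 0, 5 and 8 counts at 2 months and 57, 15 and 25 counts at 18 months. The corresponding FPKM values were 0, 0.0677 and 0.113 in young libraries and 0.717, 0.192 and 0.322 in aged libraries. All aged values were above all young values, yet the spread was wide and 1 aged library held more than the other two together. Its log2 fold change of 2.58 (95% interval -0.07 to 5.22) did not pass the test (edgeR adjusted p = 0.091). It passed both limits with DESeq2 (2.66, adjusted p = 0.041) and with limma on log2(FPKM + 0.1) (1.60, adjusted p = 0.035). Without a library the edgeR adjusted p ran from 0.10 to 0.25, so the call depended on the tool. The counts do not say whether the p16 or the Arf transcript was read.

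Cdkn2b (ENSMUSG00000073802, chr4:89306299-89311039, minus strand) lies 11645 bases from Cdkn2a and encodes p15, which is known as a target of TGF-beta signalling. It had 80, 58 and 6 counts at 2 months and 43, 18 and 10 counts at 18 months. The ages overlapped, and the log2 fold change of -1.31 (95% interval -3.72 to 1.09) did not pass (edgeR adjusted p = 0.30). The young libraries alone spanned 6 to 80 counts, and the interval held changes of either sign.

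Cdkn2c (ENSMUSG00000028551, chr4:109660876-109667189, minus strand), which encodes p18, was at 2.98, 10.9 and 4.29 FPKM at 2 months and 20.6, 24.4 and 26.7 FPKM at 18 months. The young library with the most marrow signal lay highest among the young and still below the aged. Its log2 fold change was 1.94 (SE 0.47, edgeR adjusted p = 0.017). Without that library it was 2.62 (adjusted p = 4.4e-04). The call was lost without 2-month replicate 3, 18-month replicate 2 or 18-month replicate 3, with adjusted p from 0.052 to 0.064.

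Cdkn2d (ENSMUSG00000096472, chr9:21288410-21291308, minus strand), which encodes the Ink4 protein p19, showed the widest gap of the family. It was at 7.97, 13.6 and 6.33 FPKM in young libraries (9.29 ± 3.79, SD, n = 3) and at 58.96, 75.7 and 73.8 FPKM in aged libraries (69.5 ± 9.18, SD, n = 3). The lowest aged value was far above the highest young value. The log2 fold change of 2.85 (SE 0.29, 95% interval 2.13 to 3.56, edgeR adjusted p = 0.0016) stayed past both limits under every alternative and without each library, with values from 2.53 to 3.19. It rose with the marrow sums between the ages. Within the 2-month libraries, replicate 2 was 1.896 times the mean of the others. The part of marrow cells in the Cdkn2c and Cdkn2d results was not tested.

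Within each library, the share of the 7 CDK inhibitors' summed FPKM does not depend on the scaling between libraries. Cdkn1a fell from 41.6% ± 4.21 (SD, n = 3) to 9.08% ± 2.48 of the sum, and Cdkn2d went from 9.49% ± 3.75 to 52.6% ± 3.72. Cdkn1c held 21.4% of the sum in young and 1.79% in aged cartilage, Cdkn2c 6.22% and 18.1%, and Cdkn1b 20.5% and 17.9%. Cdkn2a and Cdkn2b held at most 1.01% in every library. For Cdkn1a, Cdkn1c, Cdkn2a, Cdkn2c and Cdkn2d the shares did not overlap between the ages, and the two-sided exact permutation test gave p = 0.1, the smallest that 3 against 3 libraries allows. For Cdkn1b it gave p = 0.2 and for Cdkn2b p = 0.3 (exact permutation tests). Adjusted over the 7 shares by the Benjamini-Hochberg method, these exact permutation p-values were 0.14, 0.23 and 0.30. The summed FPKM itself was 102.4, 98.3 and 91.6 at 2 months and 121.6, 136.0 and 137.4 at 18 months. The FPKM of all genes summed to 293108, 269587 and 273079 at 2 months and to 360503, 387502 and 382432 at 18 months. The total was thus higher too, and the higher inhibitor sum cannot be read apart from the FPKM scale.

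**Figure D3:**
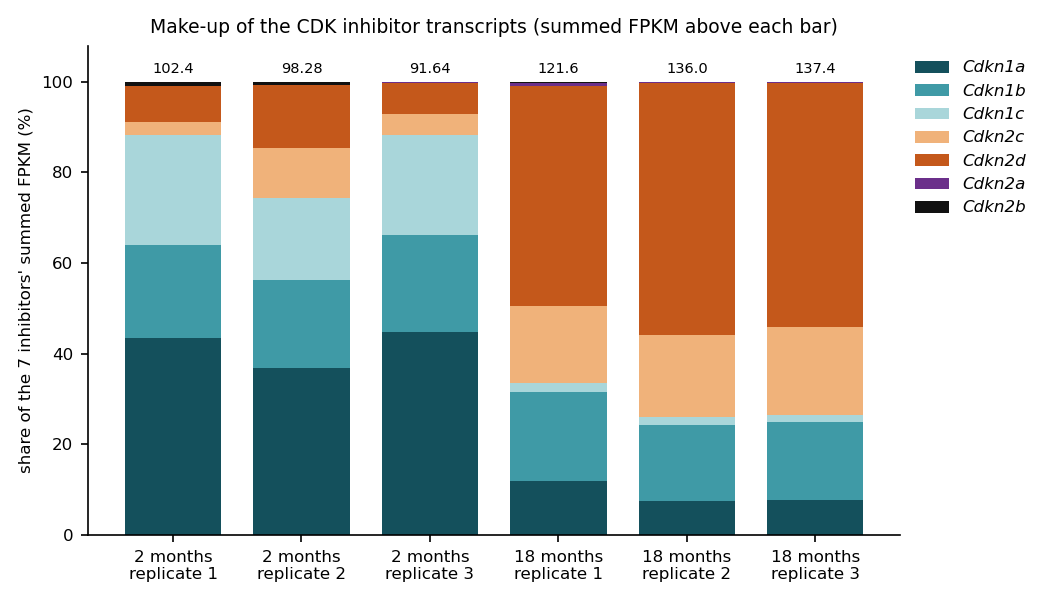
Share of each of 7 CDK inhibitor genes in their summed FPKM (percent, vertical axis) for each library, with the summed FPKM printed above the bar. Cdkn1a holds 36.8% to 44.7% of each 2-month bar, and Cdkn2d holds 48.5% to 55.7% of each 18-month bar.

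The ratio of Cdkn2c to Cdkn2d was 0.373, 0.803 and 0.678 at 2 months and 0.349, 0.323 and 0.363 at 18 months. The groups did not overlap, although 1 young library lay close to the aged ones (exact permutation p = 0.1). On the log2 scale the ratio differed by -0.77, and by -0.55 without 2-month replicate 2.

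Trp53 and Mdm2 form a feedback loop in which p53 switches on its own ligase. Trp53 (ENSMUSG00000059552, chr11:69580359-69591873, plus strand) was at 8.12, 12.1 and 8.09 FPKM in young libraries and 15.1, 12.2 and 13.4 FPKM in aged libraries. The young replicate 2 nearly reached the lowest aged value. For Trp53 the log2 fold change was 0.45 (95% interval 0.06 to 0.85, edgeR unadjusted p = 0.031, adjusted p = 0.059). Without that library it was 0.64 (adjusted p = 0.0032), under the fold limit. Mdm2 (ENSMUSG00000020184, chr10:117688875-117710758, minus strand) was at 13.3, 13.3 and 12.1 FPKM at 2 months and 10.3, 11.9 and 12.2 FPKM at 18 months, which overlap. Its log2 fold change of -0.24 (95% interval -0.53 to 0.04) did not pass (edgeR adjusted p = 0.13). It was -0.61 with TPM (limma adjusted p = 0.0052), also under the fold limit.

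The ratio of Mdm2 to Trp53 was 1.64, 1.09 and 1.50 in young and 0.684, 0.978 and 0.910 in aged libraries. Every young library had more Mdm2 than Trp53 FPKM and every aged library had less. The log2 ratio differed by -0.71 (two-sided exact permutation p = 0.1, the smallest possible), and by -0.89 without 2-month replicate 2.

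The targets of p53 other than these did not move one way. Of 26 tested, 7 were past both limits as higher and 4 as lower, against 14.9% and 21.3% of all genes. The median log2 fold change was 0.23, but the split turned to 3 higher and 6 lower on the TPM scale. On that scale all genes gave 3109 higher and 5819 lower of 21539, which is the background of each split given with TPM below. Pidd1, which takes part in a caspase-activating complex, was higher by 2.29 on the log2 scale (edgeR adjusted p = 0.0085), and Apaf1, the core of the apoptosome, by 1.84 (adjusted p = 0.0038). Plk2, a polo-like kinase, was at 12.5 to 15.1 FPKM in young and 0.966 to 1.19 FPKM in aged cartilage (log2 fold change -3.74, edgeR adjusted p = 7.1e-04). Phlda3, an inhibitor of Akt, had a log2 fold change of -1.28 (adjusted p = 0.028), a call that was lost without 2-month replicate 1 or 3 or 18-month replicate 2 or 3. Btg2, an antiproliferative gene and the most abundant of the list, had one of 1.20 (edgeR adjusted p = 0.0019).

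Among 16 regulators and relatives of p53 tested, 3 were past both limits as higher and 2 as lower, against 14.9% and 21.3% of all genes. The split was 3 and 1 with median-of-ratios scaling or total counts, and 1 and 3 with TPM. The checkpoint kinases Chek2 (log2 fold change 2.63, edgeR adjusted p = 0.011) and Chek1 (1.32, adjusted p = 0.0037) were higher, and Trp53bp1, a DNA break adaptor, was lower (-1.02, adjusted p = 0.0025), a value that ran from -1.13 to -0.96 with a library left out and was under the fold limit without 2-month replicate 3, 18-month replicate 2 or 18-month replicate 3. Rpl5, a ribosomal protein that binds Mdm2 and the most abundant of the list, had a log2 fold change of -0.09 (adjusted p = 0.78).

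Lmnb1 (ENSMUSG00000024590, chr18:56707813-56753424, plus strand) encodes lamin B1 of the nuclear lamina. It was at 3.17, 18.1 and 3.31 FPKM in young libraries (8.21 ± 8.60, SD, n = 3) and at 64.5, 59.1 and 55.5 FPKM in aged libraries (59.7 ± 4.51, SD, n = 3). All aged libraries lay above all young ones, and the young replicate 2 held 5.60 times the mean of the other young libraries. The log2 fold change was 2.84 (SE 0.72, 95% interval 1.05 to 4.62, edgeR adjusted p = 0.021). Without the young replicate 2 it was 4.10 (adjusted p = 3.7e-05). Leaving out 2-month replicate 3 or any 1 of the 18-month libraries took the adjusted p to between 0.055 and 0.058. Lmnb1 is also known to be abundant in dividing cells, and the part of such cells, and of the marrow cells whose marker sums were higher, was not tested.

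Lmna, which encodes the A-type lamins, stayed at 10.9 to 13.7 FPKM in young and 13.04 to 14.3 FPKM in aged libraries (log2 fold change 0.08, edgeR adjusted p = 0.54). The ratio of Lmnb1 to Lmna was 0.292, 1.33 and 0.267 at 2 months and 4.52, 4.54 and 4.03 at 18 months. No young library reached the aged ratio (exact permutation p = 0.1), and the difference of 3.21 on the log2 scale was 3.97 without 2-month replicate 2. Adjusted over the 4 ratios tested, the exact permutation p was 0.13 for the ratio of Lmnb1 to Lmna, of Mdm2 to Trp53 and of Cdkn2c to Cdkn2d. Of 15 other genes of the lamina and nuclear envelope, 5 were past both limits, each as higher, against 14.9% higher and 21.3% lower of all genes. The split was 3 higher and 1 lower with TPM, and 8 and 5 by adjusted p alone, against 51.3% of all genes. Lbr, the lamin B receptor, was higher by 2.33 on the log2 scale (edgeR adjusted p = 0.0020), Tmpo, a lamina-associated protein gene, by 1.75 (adjusted p = 0.0044), and Sun2, an inner membrane protein gene and the most abundant, by 1.01 (adjusted p = 0.0038). Sun2 was under the fold limit without 2-month replicate 2 (0.95) or 18-month replicate 1.

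**Figure D4:**
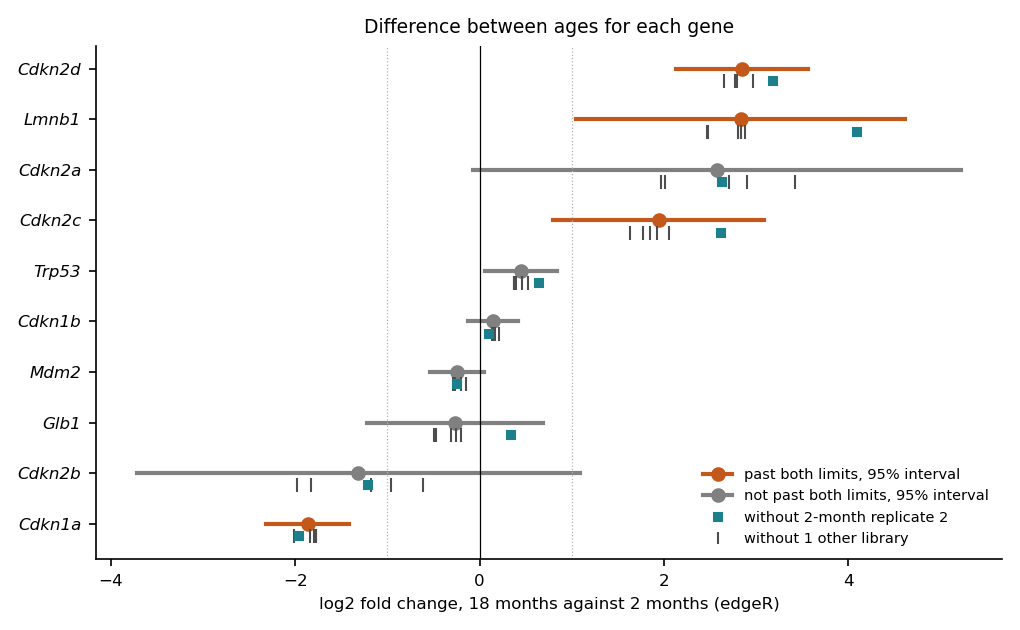
Log2 fold change of 18 months against 2 months for each gene (horizontal axis), with its 95% interval from edgeR and, under it, the values with 1 library left out; dotted lines mark the fold limit. Lmnb1 moves from 2.84 to 4.10 and Glb1 from -0.26 to 0.35 when 2-month replicate 2 is left out, whereas Cdkn1a stays between -2.01 and -1.77.

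Glb1 (ENSMUSG00000045594, chr9:114401076-114474898, plus strand) encodes the enzyme behind senescence-associated beta-galactosidase staining. It was at 10.7, 28.8 and 10.4 FPKM in young libraries and 13.5, 15.3 and 14.2 FPKM in aged libraries. The young replicate 2 was 2.73 times the mean of the other young libraries and above every aged one, and it was also the library with the most osteoclast marker signal (Ctsk, the cathepsin of osteoclasts, at 933 FPKM against 32.0 and 211 in the other young libraries). The part of osteoclasts in this value was not tested. Over all libraries the log2 fold change was -0.26 (95% interval -1.22 to 0.69, edgeR adjusted p = 0.60). Without that library its sign turned, to 0.35 (adjusted p = 0.040), under the fold limit. Glb1 overlaps 6172 bases of Tmppe on the same strand, which had 174 to 528 counts against 1756 to 5079 for Glb1.

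Of 22 other lysosomal genes, 5 were past both limits as higher and 4 as lower, against 14.9% and 21.3% of all genes. The split was 1 and 5 with TPM. The glycosidase genes Man2b1 (log2 fold change 1.74, edgeR adjusted p = 0.0042) and Neu1 (1.26, adjusted p = 0.0012) were higher. Gaa, the acid alpha-glucosidase gene that serves glycogen breakdown, was at 42.1 to 75.2 FPKM in young and 5.85 to 9.11 FPKM in aged cartilage (-3.19, adjusted p = 0.0016), and Idua, which degrades glycosaminoglycans, had a log2 fold change of -1.38 (adjusted p = 0.0018). Lamp1, a lysosomal membrane protein gene and the most abundant, was at 130.4 to 145.5 FPKM in young and 143.9 to 152.1 FPKM in aged libraries (edgeR adjusted p = 0.94).

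The order of levels, given in FPKM and so per length, was led at 2 months by Cdkn1a (40.5), with no overlap with Cdkn1b (19.99) below it. Glb1 (16.7), Mdm2 (12.9), Trp53 (9.45), Cdkn2d (9.29), Lmnb1 (8.21) and Cdkn2c (6.05) followed, each overlapping its neighbour, and then, apart from them, Cdkn2b (0.609) and Cdkn2a (0.0603). At 18 months Cdkn2d (69.5) and Lmnb1 (59.7) led and overlapped each other. They were followed without overlap by Cdkn2c (23.9) and Cdkn1b (23.4), and then by Glb1 (14.3), Trp53 (13.6), Cdkn1a (11.8) and Mdm2 (11.5). Cdkn2a (0.410) and Cdkn2b (0.257) were again last. The neighbours among Glb1, Trp53, Cdkn1a and Mdm2 overlapped, so their order at 18 months was not resolved.

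Genes of the G1 and RB pathways were counted over all libraries and with each left out. Of 14 G1 cyclins, kinases and their partners tested, 10 were past both limits as higher and 3 as lower, against 14.9% and 21.3% of all genes. The 14 include the inhibitor Cdkn1c, which was among the lower. Their median log2 fold change was 1.78. The split was 5 higher and 3 lower without 2-month replicate 3, and 6 and 3 without any 1 of the 18-month libraries. All genes gave 2141 higher and 3499 lower of 21356 without 2-month replicate 3. Without 18-month replicate 1, 2 or 3 they gave 2408, 2119 or 2095 higher and 4363, 3680 or 3687 lower. The largest rises with at least 1 FPKM on average were in Ccne1 (cyclin E1, log2 fold change 3.51, edgeR adjusted p = 0.024) and Cdk1, the mitotic kinase (3.40, adjusted p = 0.026), and the most abundant, Ccna2 (cyclin A2), was at 1.03, 15.1 and 1.96 FPKM in young and 57.9, 63.9 and 61.8 FPKM in aged libraries. Ccnd2, a D-type cyclin, was lower with Cdkn1c (-1.97, adjusted p = 0.0020). Without 2-month replicate 2 the log2 fold changes were 5.26 for Ccne1, 5.07 for Cdk1 and 5.24 for Ccna2. Each of these lost their calls without 2-month replicate 3 or any 1 of the 18-month libraries, as did Ccna2 without 2-month replicate 1. Of 17 genes of RB and E2F proteins and their partners, Lin9, Lin37, Lin52 and Lin54 among them, 8 were higher and 1 lower. The shares of all genes were 14.9% and 21.3%. Without 2-month replicate 2, 12 were higher and 1 lower, while all genes gave 5007 higher and 4576 lower of 21489. E2f1 had a log2 fold change of 2.82 (edgeR adjusted p = 0.027), which was 4.09 without 2-month replicate 2 and lost its call without 2-month replicate 3 or any 1 of the 18-month libraries. Tfdp1, the dimer partner of E2F proteins, had a log2 fold change of 1.93 (edgeR adjusted p = 0.0020), and E2f5, a repressor E2F, one of -1.59 (adjusted p = 0.0029).

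Proliferation genes were higher as a group. Of 21 tested, 17 were past both limits, each as higher, against 14.9% higher and 21.3% lower of all genes. The median log2 fold change was 3.08, and the calls were led by Rrm2 (ribonucleotide reductase, 3.63, edgeR adjusted p = 0.039) and Birc5 (survivin, 3.58, adjusted p = 0.032). Pcna, the replication clamp, was at 16.1, 42.6 and 17.5 FPKM in young and 141.2, 154.1 and 149.3 FPKM in aged libraries. The list summed to 51.9, 260.9 and 62.8 FPKM at 2 months and to between 929.9 and 953.1 FPKM at 18 months, so the young replicate 2 again lay between. The count was 8 without 2-month replicate 3 or without any 1 of the 18-month libraries, and 21 without 2-month replicate 2. Rrm2 and Birc5 were at 5.73 and 5.48 without 2-month replicate 2, and both lost their calls in the settings that gave 8.

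**Figure D5:**
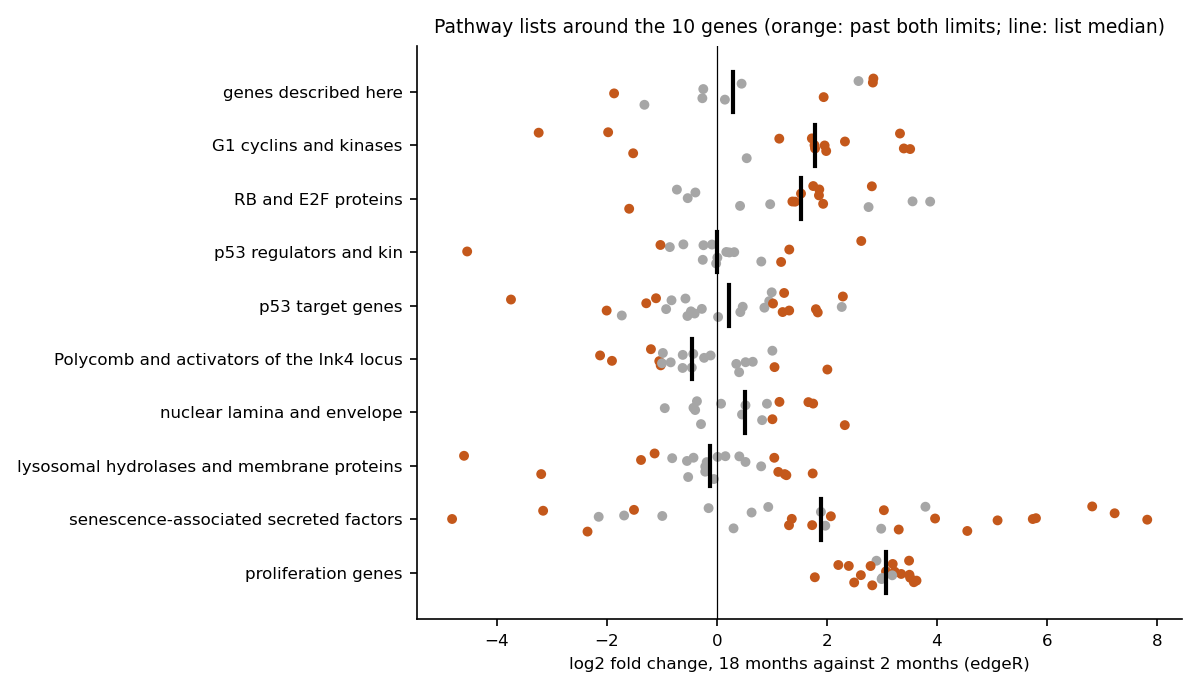
Log2 fold change of 18 months against 2 months (horizontal axis) for each tested gene of the pathway lists, with orange points past both limits and a line at each list's median. The medians run from -0.45 for the Polycomb list to 3.08 for the proliferation genes, and the 10 genes described here have a median of 0.30.

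Polycomb proteins keep the Ink4 locus silent, and Ets and Id proteins act on Cdkn2a from opposite sides. Of 21 such genes tested, 2 were past both limits as higher and 5 as lower, against 14.9% and 21.3% of all genes. The split was 2 and 3 with median-of-ratios scaling or total counts, and 1 and 8 with TPM. It was 1 and 3 without 2-month replicate 3. The Polycomb subunits Ezh2 (log2 fold change 2.01, edgeR adjusted p = 0.027) and Suz12 (1.05, adjusted p = 0.0024) were higher. Ezh2 was at 2.92 without 2-month replicate 2, and its call was lost without any 1 of the other libraries. Pcgf2, a subunit of the other Polycomb complex, was lower (-1.90, adjusted p = 0.0013), as was Id1 (-2.12, adjusted p = 0.0031), which was the most abundant of the list at 43.5 to 77.0 FPKM in young and 11.7 to 18.3 FPKM in aged libraries.

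The secreted factors of the senescent phenotype were measured beside their inhibitors. Of 29 tested, 14 were past both limits as higher and 4 as lower, against 14.9% and 21.3% of all genes. The median log2 fold change was 1.89. The list's summed FPKM was 994.8, 1332 and 932.7 at 2 months and 784.3, 862.6 and 870.5 at 18 months. Mmp13, whose values are given below, was a large part of that sum and was lower at 18 months. The lower sum therefore does not describe the list as a whole. The split was 8 higher and 5 lower without 18-month replicate 2 or 3, and 17 and 5 without 2-month replicate 2. Ccl8, a chemokine for monocytes, was at 0, 0.205 and 0.219 FPKM in young and 22.3, 18.3 and 17.9 FPKM in aged libraries (6.82, edgeR adjusted p = 0.0028). Cxcl5, a chemokine for neutrophils, reached at most 0.129 FPKM in young and at least 1.40 FPKM in aged libraries (5.80, adjusted p = 0.020). Its call was lost without 18-month replicate 2 or 3, and its log2 fold change was 11.2 without 2-month replicate 2. Vegfa, an angiogenic factor made by chondrocytes, was lower (-3.16, adjusted p = 0.0017). Mmp13, the cartilage collagenase and the most abundant of the list, was at 470.2, 798.9 and 417.7 FPKM in young and 141.6, 240.4 and 235.3 FPKM in aged libraries (-1.50, adjusted p = 0.013). Many of these factors are also made by marrow cells, whose marker sums were higher as given above, and their part in the count was not tested.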

How the data were processed

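Articular cartilage of WT mice was sequenced in 3 libraries at 2 months and 3 at 18 months, from poly(A)-selected, strand-specific, paired-end libraries with molecular identifiers. Counts deposited by the authors are whole numbers per gene and library without normalization, and the FPKM values deposited beside them are scaled by transcript length and library. The submitters' processing notes name cutadapt 1.9, HISAT2 2.0.4, UMI-tools, StringTie 1.3.4d, DESeq2 and edgeR, with no role for each. The genome build and the counting strand are not given in the sources used here. Of 33865 gene identifiers found in GENCODE M21, 91.2% had the same coordinates, so positions are given as GRCm38. Cdkn2d ends at 21291407 in M21 and 21291308 in the deposited table. Libraries held 48171507 to 59085179 counts, and 0 columns of values per library were unused.

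The test was edgeR 4.0.16 under R 4.3.3 (TMM, filterByExpr, quasi-likelihood F test, no block), with Benjamini-Hochberg adjustment over 20397 genes. The limits were an adjusted p of 0.05 and a log2 fold change of 1, as in the study. The SE was derived from F. No pair of replicates agreed within sampling noise. Shares and ratios of FPKM were tested by two-sided exact permutation. Alternatives used DESeq2 1.42.0, limma 3.58.1, other scaling and other filters. The procedures were tested on simulated data, with few changed genes, the same dispersion for every gene and no library that stood apart. The real libraries had many called genes and a young library that stood apart. That test therefore does not show how the fits behave under these conditions.

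The genes and the gene lists were chosen with earlier results of these data known. From each of 9 pathway lists the text names the 2 genes past both limits with the largest rise and the 2 with the largest fall at a mean of 1 FPKM or more, and the most abundant gene. From each marker list it names the most abundant gene. Cdkn1c and Lmna were added as partners in shares and ratios, Xist as a check, and Ctsk and the genes that overlap Cdkn1a and Glb1 after their values were seen. One of the 4 ratios and 1 of the genes the rule names are not reported here.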

Additional observations from a re-analysis of the deposited data

How the results depend on the processing

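With all libraries kept, 4 or 5 of the 10 genes were past both limits under the 11 alternatives, and Cdkn1a, Cdkn2c, Cdkn2d and Lmnb1 were past them in each. The fifth was Cdkn2a, at 2.66 with DESeq2 and 1.60 with limma on log2(FPKM + 0.1). Leaving out 1 library at a time gave 2 to 4 genes: 2 without 2-month replicate 3, 18-month replicate 2 or 18-month replicate 3, and 3 without 18-month replicate 1. Lmnb1 was lost in each of these and Cdkn2c in all of them but 18-month replicate 1. Signs turned for Cdkn1b on the TPM scale (-0.21) and for Glb1 with a library left out, where it ran from -0.49 to 0.35. Over all genes, 5097 to 10457 were past the limits under the alternatives (the last with no fold limit) and 5640 to 9583 with a library left out, against 7401. The share of higher calls was 41.2%, and ran from 34.8% with limma on log2(TPM + 0.1) to 57.8% with limma on log2(FPKM + 1). With a library left out it ran from 35.6% (18-month replicate 1) to 52.3% (2-month replicate 2). Over the 9 pathway lists, 94 of 181 genes tested were past both limits, against 36.3% of all genes. The count was 85 to 107 under the alternatives, 130 with no fold limit (against 51.3% of all genes), and 67 to 113 with a library left out. The count over all genes moved in these settings too, as given above. The TPM scale moved the median of all genes to -0.33, and the other settings kept it within 0.08 of 0. None of the 8 alternatives turned the sign of a share or ratio. With a replicate block in edgeR, 4 of the 10 genes, 6032 of all genes and 95 of the list genes were past both limits. Libraries of the same number had correlated deviations of 0.03, 0.04 and -0.02, and not every library correlated best with its own number, so nothing shows that the numbers pair the samples. Cdkn2a and Cdkn2b had the fewest counts of the 10 genes, 110 and 215 over all libraries.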
